A study of Mus musculus with 229 samples.

Results

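The genes described are the platelet-derived growth factor (PDGF) receptors and ligands of the mouse, 6 genes chosen by name from the 49268 gene symbols in all expression tables. They are the receptor genes Pdgfra and Pdgfrb and the ligand genes Pdgfa, Pdgfb, Pdgfc and Pdgfd. PDGF receptors are cell-surface tyrosine kinases that pair up when a dimeric ligand binds, and then recruit adaptors that feed the Ras-MAP kinase and PI3 kinase pathways. In the developing brain, PDGF-A acting on PDGFRα is a well-known mitogen and survival signal of oligodendrocyte precursor cells (OPCs), which lose the receptor as they mature into oligodendrocytes. PDGF-B made by endothelial cells attracts pericytes, the mural cells of small vessels, through PDGFRβ. Glioblastoma is a malignant brain tumour in which PDGFRA is one of the commonly amplified receptor genes.

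The series holds 229 samples in 10 groups. Cortical cells were taken from PDGFRa-GFP mice, in which GFP follows the Pdgfra gene, at postnatal days 1 to 3 (1 Drop-seq library), and from hGFAP-GFP mice, in which the promoter of the human GFAP gene drives GFP, at postnatal days 5 to 6 (1 Drop-seq library). Both were sorted as GFP-positive cells that excluded the dead-cell dye 7-AAD, so the PDGFRa-GFP gate itself selects on the Pdgfra reporter. Unsorted tumours labelled glioblastoma, from the cortical region, were taken at dpi 25 (1 Drop-seq library) and dpi 35 (1 10x Genomics library). The labels neither spell out dpi nor give the host genotype, and how the tumours were made is not given in the sources used here. Single cells caught on Fluidigm C1 chips came from PDGFRa-GFP mice at P6 (53 cells) and P3 (60 cells) and from hGFAP-GFP mice at P3 (49 cells) and at P4 or P6 (61 cells). ATAC-seq, which marks open chromatin by transposase cutting, was made on sorted PDGFRa-GFP cortical cells of E14.5 and P5, and the authors deposited 1 interval list of the pooled libraries. The animals behind the cells are not named, so each group counted as 1 sample. No p-value was therefore computed, and the 95% intervals below cover counting error only. Some labels disagree: the C1 PDGFRa-GFP cells carry hGFAP-gfp as their strain, and for ATAC-seq the titles name another age and genotype than other label fields do. The titles were followed in both cases.

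The 3 Drop-seq libraries and the 10x library held 3184, 815, 4955 and 6054 cells, with medians of 2013.5, 4167, 2063 and 6582 unique molecular identifiers (UMIs, 1 per captured transcript) a cell. The labels give 2000 cells for hGFAP-GFP and 6796 for dpi 25, more than the 815 and 4955 in the tables. No cell barcode was shared between libraries. Cells were clustered with the 6 genes held out, and a cluster was named "X-like" from marker genes that do not include them. In the tumours, 2194 cells of dpi 25 (44.3%) and 551 of dpi 35 (9.10%) fell in clusters that could not be named. The doublet caller marked 5, 4, 0 and 125 cells. Levels are given as CPM, the UMIs of a gene in the cells named, scaled to a common total of all UMIs of those cells.

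The promoters of Pdgfra and Pdgfa are shown first because these genes carry the main receptor and ligand results and both had an open interval at the start site in PDGFRa-GFP cells. Each run is the 250 bases before the RefSeq start site in GRCm38.p6 (mm10), 5′ to 3′. They lie at chr5:75152001-75152250 on the plus strand for Pdgfra, and at chr5:138994282-138994531 and chr5:138994945-138995194 on the minus strand for the 2 start sites of Pdgfa. Capitals mark an E-box (CANNTG) in Pdgfra and GC boxes (GGGCGG, or CCGCCC where it is on the other strand) in Pdgfa.
Pdgfra: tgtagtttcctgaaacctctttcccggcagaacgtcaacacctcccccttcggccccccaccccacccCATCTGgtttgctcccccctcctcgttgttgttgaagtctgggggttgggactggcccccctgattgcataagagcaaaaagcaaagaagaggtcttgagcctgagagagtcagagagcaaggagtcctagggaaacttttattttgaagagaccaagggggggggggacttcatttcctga
Pdgfa start site 1: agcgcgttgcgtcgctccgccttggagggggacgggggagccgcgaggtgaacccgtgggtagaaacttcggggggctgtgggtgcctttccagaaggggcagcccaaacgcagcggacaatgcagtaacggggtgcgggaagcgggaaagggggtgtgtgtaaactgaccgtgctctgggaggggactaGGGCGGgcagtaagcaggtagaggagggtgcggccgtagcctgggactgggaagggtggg
Pdgfa start site 2: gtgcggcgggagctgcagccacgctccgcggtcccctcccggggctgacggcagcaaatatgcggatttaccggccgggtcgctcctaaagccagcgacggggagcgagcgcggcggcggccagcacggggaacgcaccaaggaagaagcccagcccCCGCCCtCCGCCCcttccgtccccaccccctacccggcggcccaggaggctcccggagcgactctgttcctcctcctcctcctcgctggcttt

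The Pdgfra run was 54.4% G and C, close to the median of 55.6% over 21263 mouse promoters, and the Pdgfa runs were 66.4% and 72.4%. The motifs searched on both strands were the TATA box TATAAA, the CCAAT box, the GC box GGGCGG, the E-box CANNTG, the Sox core ACAAAG and the AP-1 site TGACTCA. The Pdgfra run held 1 E-box, at position −182 from the start site, and 62.8% of all promoters hold one. The first Pdgfa run held 1 GC box at −60 and the second held 2, and 42.6% of promoters hold at least 1. None of the other motifs matched in these runs, and a match describes the letters only.

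Pdgfra, the receptor of OPCs, was carried by OPC-like cells in both cortical libraries. In the PDGFRa-GFP library these 1085 cells (clusters 0 and 1) held 914 of the 1149 Pdgfra UMIs (79.5%), at 356 CPM (333 to 380). Of the other named classes of at least 30 cells, cycling clusters were highest at 58.3 CPM, with choroid plexus-like cells at 19.1 and neuron-like cells at 14.1, so OPC-like cells led by 6.10-fold (5.23 to 7.16). Below that size, the 12 mural or fibroblast-like cells had 233 CPM (107 to 443), on 9 UMIs in 5 cells, an interval that overlaps that of OPC-like cells. A class was counted as carrying a gene where it led the next named class of at least 30 cells by 3-fold, with at least 20 UMIs of the gene in the library. Pdgfra met this in PDGFRa-GFP, 1 of 3 members with enough UMIs, where 11.3% of all genes met it. In the 39 astrocyte-like and the 38 oligodendrocyte-like cells of that library no Pdgfra UMI was seen. With a floor of 3 UMIs in place of the 0, the OPC-like level was at least 17.1-fold higher than the oligodendrocyte-like one, and the counting interval of that ratio began at 13.8.

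In the hGFAP-GFP library, 233 of 371 Pdgfra UMIs (62.8%) lay in the 88 cells of cluster 4, which carried markers of OPCs and of oligodendrocytes, at 564 CPM (494 to 642). The 61 primitive OPC-like cells of cluster 6, named from a list of early OPC genes such as Dll1, were at 172 CPM (128 to 224). Cluster 4 thus led by 3.29-fold (2.43 to 4.52), and Pdgfra was 1 of 2 members counted as carried, against 8.95% of all genes. Astrocyte-like and neuron-like cells were low, at 8.37 and 9.29 CPM. Cluster 4 stood 1.59-fold (1.37 to 1.83) above clusters 0 and 1 of the PDGFRa-GFP library. Strain, age and library differ together between these clusters and cannot be told apart.

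**Figure D1:**
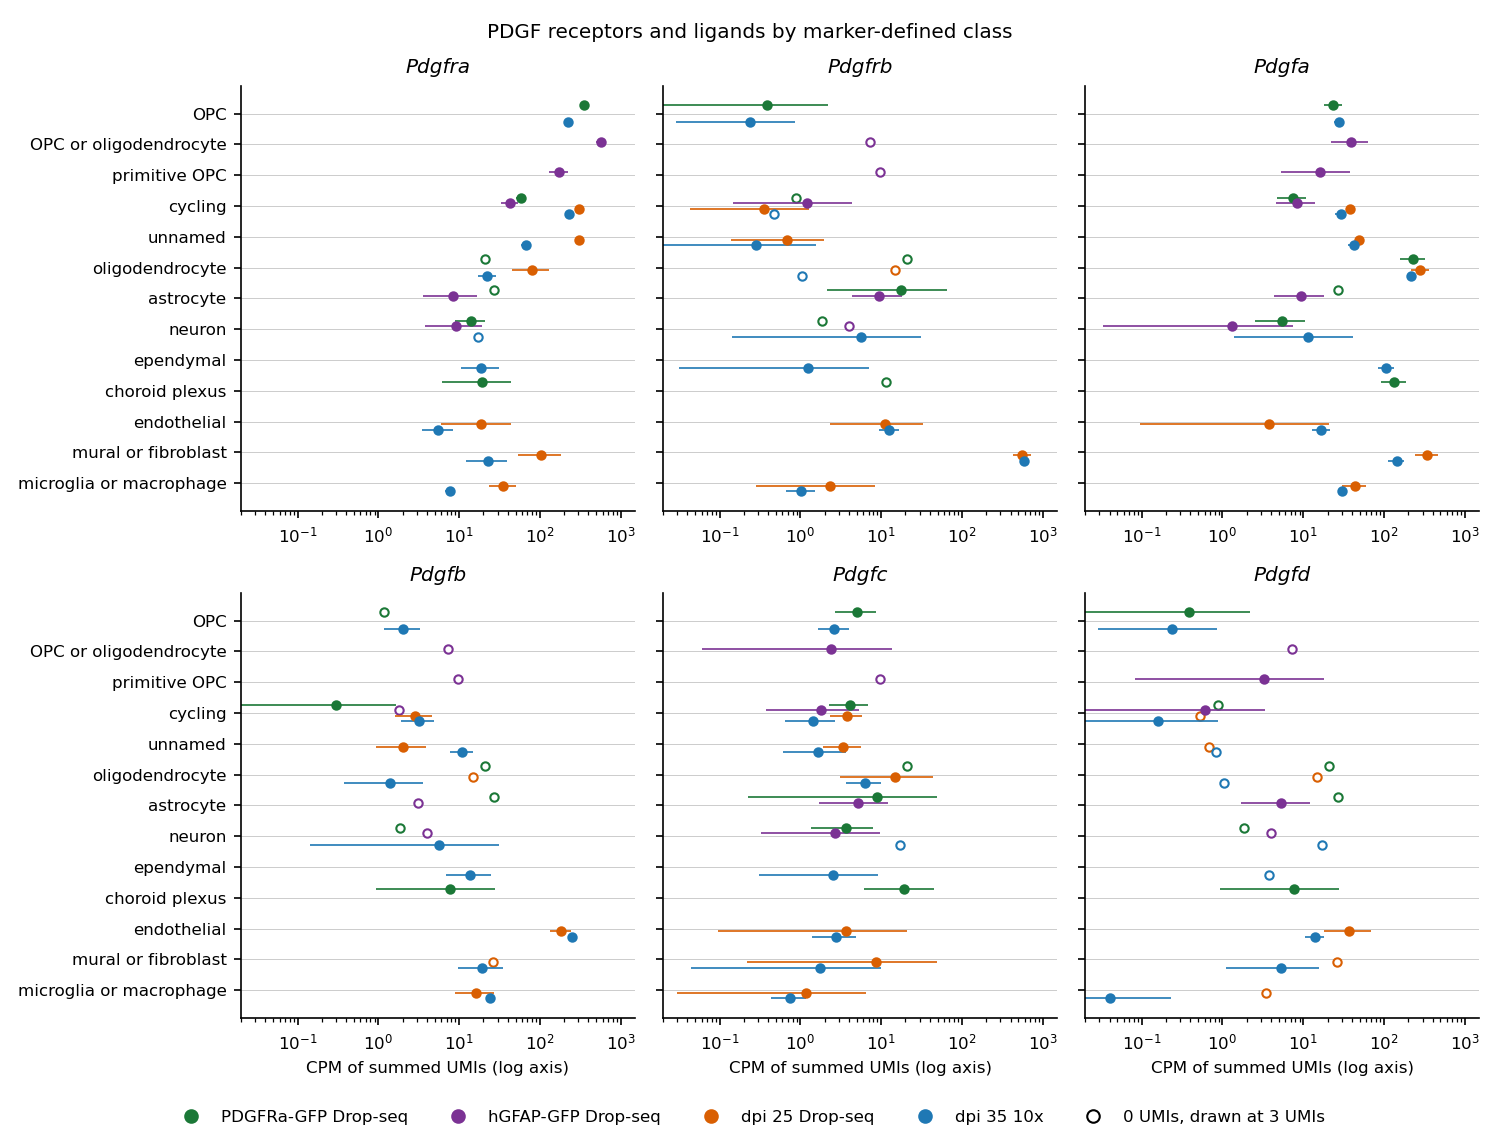
Level of each of the 6 genes by marker-defined class in the 4 droplet libraries, as CPM on a log axis, with bars for the 95% counting interval. Open circles mark a count of 0, drawn at the level of 3 UMIs. Pdgfra is high in OPC-like classes, in the cycling clusters of both tumours and in the unnamed clusters of dpi 25, Pdgfrb in mural or fibroblast-like cells, Pdgfb and Pdgfd in endothelial-like cells and Pdgfa in several classes.

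OPC-like cells were not uniform. In the PDGFRa-GFP library, cluster 0, led by Cntn1 and Cspg5, had 466 CPM of Pdgfra (431 to 503), and cluster 1, led by Olig1, Bcas1, Hes5 and Dll3, had 217 (191 to 246). The ratio was 2.15 (1.85 to 2.50). OPC markers summed to 6203 CPM in cluster 0 and to 4897 in cluster 1. Of the cycling clusters of the PDGFRa-GFP Drop-seq library, cluster 7 had 379 CPM of Pdgfra, and clusters 3, 5 and 6 together had 18, a ratio of 21 (15.3 to 29.3). OPC markers went the same way, at 4829 CPM in cluster 7 against 808 to 1055 in the other cycling clusters, and interneuron markers the opposite way, at 538 CPM against 3983 to 4582. Dividing cells of this sort thus formed a group of 93 cells with the receptor and OPC markers and a larger group with interneuron markers and little receptor. In hGFAP-GFP, cycling clusters 8, 2 and 3 were at 89.4, 43.1 and 9.84 CPM of Pdgfra.

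In the dpi 25 tumour, Pdgfra was spread over most of the cells. Cycling clusters together had 302 CPM (288 to 317) and clusters without a name 304 (288 to 321), and the 9 clusters lay between 214 and 384 CPM. Cluster 1, whose leading genes are headed by Ttr and include Cdkn2b and the D-type cyclins Ccnd1 and Ccnd2, was highest. Cluster 2, whose leading genes include the S-phase genes Ccne2 and Cdt1, was lowest, at 0.559 times cluster 1 (0.489 to 0.637). Cluster 4, led by genes known from hypoxia such as Ero1l, Bnip3 and Vegfa, had 310 CPM, and cluster 10, led by interferon-response genes such as Ifit3 and Ifit1, had 348. All of these clusters of the dpi 25 Drop-seq library held OPC markers, at summed levels of 2916 to 3898 CPM. Other classes of this tumour were lower: mural or fibroblast-like cells at 105 CPM, oligodendrocyte-like at 78.9, microglia or macrophage-like at 35.0 and endothelial-like at 18.6. The lead of the cycling class over the next named class was 2.89-fold (1.65 to 5.60), below the 3-fold rule.

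In the dpi 35 tumour, cycling cells were at 227 CPM of Pdgfra and OPC-like cells at 222, with a ratio of 1.02 (0.954 to 1.10). The level thus did not differ beyond counting error between the cycling class and the OPC-like class. Within the OPC-like class, cluster 0 was at 236, cluster 13 at 215 and cluster 11, led by the hypoxia genes Adm, Bnip3 and Ero1l, at 152. Oligodendrocyte-like cells were at 22.2 CPM, 10.0-fold below OPC-like cells (7.81 to 13.1). Microglia or macrophage-like cells were at 7.74, endothelial-like at 5.51, and none of the 30 neuron-like cells had a UMI. Among unnamed clusters of dpi 35, cluster 16, in which 78.1% of the cells were called doublets and which was led by myeloid genes, had 132 CPM.

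The oligodendrocyte-like cells split by maturity markers, and Pdgfra was higher on the less mature side in dpi 35. In the dpi 35 10x library, cluster 10, with committed-oligodendrocyte markers at 7440 CPM (such as Enpp6 or Gpr17), had 30.5 CPM of Pdgfra. Cluster 17, where these markers summed to 696 and those of mature myelinating cells to 62892, had 5.24 CPM, 5.82-fold lower (2.36 to 18.6). In the dpi 25 Drop-seq library, cluster 11 (committed markers at 7778 CPM) had 114 CPM of Pdgfra and cluster 13 (823 CPM) had 41.1, on 12 and 4 UMIs, and the interval of their ratio, 0.361 (0.0850 to 1.19), included 1.

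Seen cell by cell, at 1000 UMIs drawn from each cell to level the depth, 27.5% of OPC-like cells of PDGFRa-GFP had a Pdgfra UMI (48.2% before thinning), against 1.65% of neuron-like cells (2.18%). In dpi 25 the share was 25.6% in cycling clusters (49.0%) and 24.6% in unnamed ones, against 3.21% in microglia or macrophage-like cells (7.00%). In dpi 35 it was 20.9% in OPC-like cells (70.0%) and 19.4% in cycling ones (76.3%), against 0.783% of microglia or macrophage-like cells (5.59%). Neuron-like and myeloid cells are set beside them for comparison. How much of their share is free RNA was not tested, and the PDGFRa-GFP neuron-like cells were themselves sorted on the reporter. Median depths were 2105 UMIs in OPC-like and 1436 in neuron-like cells of PDGFRa-GFP, 2297 in cycling and 2166 in myeloid cells of dpi 25, and 5513 in OPC-like and 7288 in myeloid cells of dpi 35. Cells below 1000 UMIs were left out, which kept 907 of the 1085 OPC-like and 788 of the 1011 neuron-like cells of PDGFRa-GFP.

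Pdgfrb, the receptor of pericytes and other mural cells, lay in both tumours mostly in mural or fibroblast-like cells. At dpi 25 these 44 cells held 64 of 74 Pdgfrb UMIs (86.5%), at 558 CPM (430 to 712), and led endothelial-like cells at 11.2 CPM by 49.9-fold (16.3 to 249). At dpi 35 another 44 cells held 333 of 416 UMIs (80.0%), at 588 CPM (527 to 655), a lead of 47-fold (34.8 to 64.6) over endothelial-like cells at 12.5. Mural markers, a list that leaves out Pdgfrb, summed to 5918 CPM in this class of the dpi 25 Drop-seq library and to 4326 CPM in that of the dpi 35 10x library, with none of 14 at 0. The class is named from fibroblast markers as well, so mural cells and fibroblasts are not separated in it. Over the whole libraries, fibroblast and mural markers summed to 82.7 and 78.7 CPM at dpi 25, and to 37.5 and 78.8 CPM at dpi 35. After thinning, 43.2% and 52.3% of the mural or fibroblast-like cells had a Pdgfrb UMI (70.5% and 88.6% before), against 0% and 0.0745% of myeloid cells.

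Sorted cortical cells held few Pdgfrb UMIs, 7 in PDGFRa-GFP and 11 in hGFAP-GFP. Of the 11, 9 were in astrocyte-like cells, and 6 of these in the 46 cells of cluster 7, at 33.5 CPM against 3.86 in astrocyte-like cluster 0, a ratio of 8.67 (1.85 to 53.6). In the hGFAP-GFP Drop-seq library mural markers summed to 274 CPM in cluster 7 with 9 of 14 at 0, and to 83.7 CPM in cluster 0 with 3 of 14 at 0. Their part in the Pdgfrb level was not tested.

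Pdgfa, the ligand that acts on PDGFRα alone, was highest outside the OPC-like cells in PDGFRa-GFP and in both tumours, and no class reached a 3-fold lead in any library. In hGFAP-GFP, cluster 4, with OPC and oligodendrocyte markers, was highest of the classes of at least 30 cells, at 38.8 CPM on 16 of 56 UMIs, before primitive OPC-like cells at 16.2. In PDGFRa-GFP the 38 oligodendrocyte-like cells had 230 CPM (158 to 322), 9.82-fold (6.22 to 15.3) above OPC-like cells at 23.4. Choroid plexus-like cells, the epithelium that makes cerebrospinal fluid, had 134 CPM, 5.71-fold (3.65 to 8.81) above OPC-like cells. In the same oligodendrocyte-like cells Pdgfra was at 0. Of the 164 Pdgfa UMIs of PDGFRa-GFP, the 1085 OPC-like cells held 60 (36.6%) and the 38 oligodendrocyte-like cells 33 (20.1%).

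In both tumours, too, oligodendrocyte-like cells were above the cells with OPC markers for Pdgfa. Oligodendrocyte-like cells of dpi 25 were at 281 CPM of Pdgfa (213 to 364), 6.48-fold (4.83 to 8.56) above cycling and unnamed cells at 43.4. By number of UMIs the order was the other way. Oligodendrocyte-like cells held 57 of the 584 Pdgfa UMIs of dpi 25 (9.76%), cycling cells 216 (37.0%) and unnamed cells 220 (37.7%). Oligodendrocyte-like cells of dpi 35 were at 219 CPM (202 to 237), 7.93-fold (6.80 to 9.26) above OPC-like cells at 27.6. They held 632 of the 2183 Pdgfa UMIs (29%), and OPC-like cells 230 (10.5%). The more mature cluster had more ligand in each tumour: cluster 13 over cluster 11 by 2.35-fold (1.31 to 4.36; 401 and 171 CPM) at dpi 25, and cluster 17 over cluster 10 by 1.63-fold (1.39 to 1.92; 295 and 181 CPM) at dpi 35. Pdgfra was lower in these 2 clusters than in their partners, beyond counting error at dpi 35 only. These pairs of clusters were chosen after their values were seen.

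**Figure D2:**
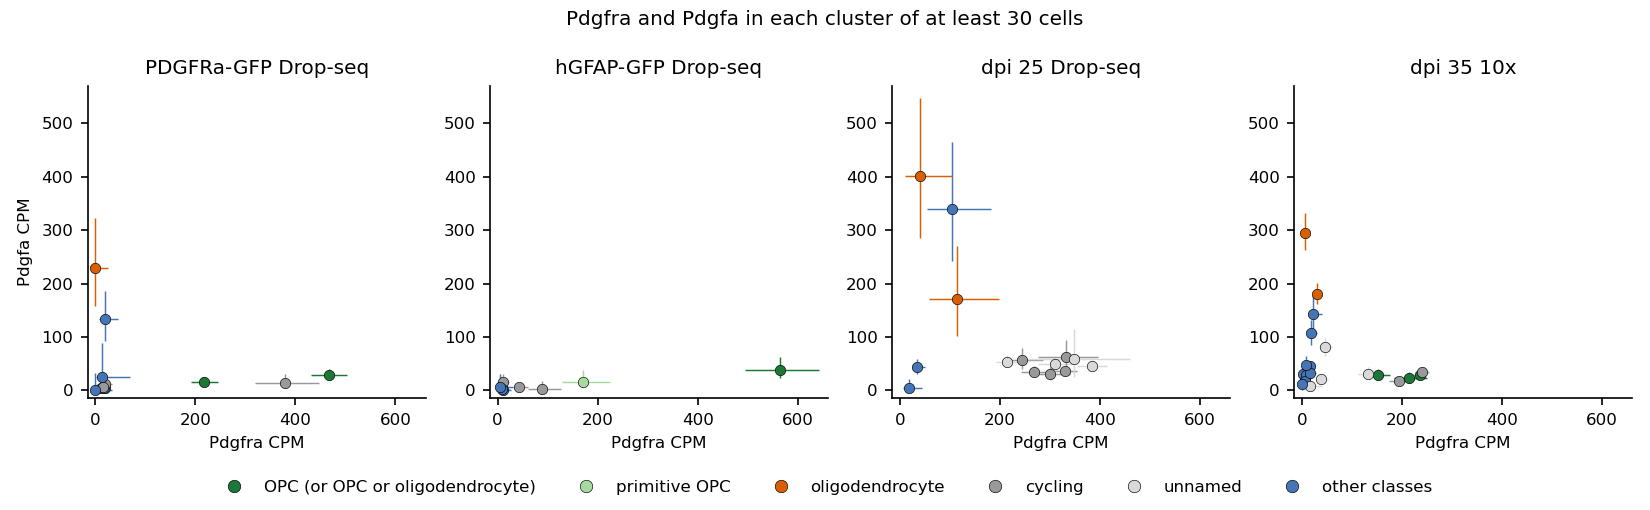
Pdgfra level (x) against Pdgfa level (y) of each cluster of at least 30 cells, in CPM, with 1 panel for each droplet library, colours for the class and bars for the 95% counting intervals. Oligodendrocyte-like clusters sit high on the Pdgfa axis and low on the Pdgfra axis, and OPC-like clusters, cycling tumour clusters and the unnamed clusters of dpi 25 the other way round.

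Pdgfa was also found in other cells. Mural or fibroblast-like cells were at 340 CPM in dpi 25, 7.83-fold (5.49 to 10.9) above cycling and unnamed cells, and at 143 CPM in dpi 35. Ependymal-like cells, which line the ventricles, were at 107 CPM in dpi 35, 3.86-fold (2.97 to 4.97) above OPC-like cells, and at 101 CPM in the 14 such cells of hGFAP-GFP. The 14 astrocyte-like cells of dpi 25 were at 259 CPM (142 to 434), on 14 UMIs in 8 cells. Microglia or macrophage-like cells were only at 30.4 CPM in dpi 35, but as the most numerous class there they held 742 UMIs, 34% of the Pdgfa UMIs. In dpi 35, heat-shock-led unnamed cluster 12 had 80.7 CPM of Pdgfa and 46 of Pdgfra. After thinning, the share of oligodendrocyte-like cells with a Pdgfa UMI was 17.1% in PDGFRa-GFP, 26.5% in dpi 25 and 21.6% in dpi 35 (50%, 38.6% and 69.0% before), against 0.508% of PDGFRa-GFP neuron-like cells, and 4.08% and 3.09% of myeloid cells of the tumours. Myeloid cells were at about the Pdgfa level of tumour cells with OPC markers. They had 43.2 CPM against 43.4 in cycling and unnamed cells of dpi 25, and 30.4 against 27.6 in OPC-like cells of dpi 35. The part of free RNA in these levels was not tested.

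Pdgfb, the ligand that endothelial cells offer to pericytes, was highest in the endothelial-like cells of both tumours, but was not confined to them. At dpi 25, 49 of 88 UMIs (55.7%) lay in 84 endothelial-like cells, at 182 CPM (135 to 241), a lead of 11.2-fold (6.07 to 21.9) over microglia or macrophage-like cells at 16.3. At dpi 35, 985 of 1686 UMIs (58.4%) lay in 229 endothelial-like cells, at 247 CPM (231 to 263), a lead of 10.1-fold (9.10 to 11.2) over myeloid cells at 24.5. Microglia or macrophage-like cells held 14 of the 88 UMIs at dpi 25 (15.9%) and 597 of the 1686 at dpi 35 (35.4%). Cycling and unnamed cells of dpi 25 held 25 of the 88. Myeloid cells in turn were above the OPC-like cells of dpi 35 (2.04 CPM) by 12-fold (7.42 to 20.7) and above the cycling and unnamed cells of dpi 25 (2.49 CPM) by 6.56-fold (3.15 to 13.1). The sorted cortical libraries, with few vascular cells, held 6 Pdgfb UMIs in PDGFRa-GFP and none in hGFAP-GFP. With Pdgfrb, Pdgfb made 2 of 5 members counted as carried by 1 class in dpi 25, against 15.1% of all genes, and 2 of 6 in dpi 35, against 18.6%.

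Pdgfd, a second ligand of PDGFRβ, was rarer and also highest in the endothelial-like cells of both tumours. At dpi 25, 10 of its 11 UMIs were in endothelial-like cells (37.2 CPM). At dpi 35, 56 of 63 were (14 CPM), 94.6-fold (43 to 246) above all other cells, although the lead over the 3 UMIs of mural or fibroblast-like cells was 2.65-fold (0.860 to 13.2). In hGFAP-GFP, 5 of 7 UMIs were in astrocyte-like cells. Pdgfc, which binds PDGFRα after a protease removes its CUB domain, was sparse in every library, with 39, 11, 42 and 88 UMIs. At dpi 35 oligodendrocyte-like cells were 2.36-fold (1.19 to 4.61) above OPC-like cells for Pdgfc, and mature cluster 17 was at 15.7 CPM against 1.55 in cluster 10, on 15 and 3 UMIs, a ratio of 10.1 (2.87 to 54.6).

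Neighbours in the order of levels often could not be told apart. For Pdgfra in PDGFRa-GFP, OPC-like stood above cycling, and the next 2 classes, choroid plexus-like and neuron-like, had overlapping intervals (6.19 to 44.5 and 8.94 to 21.2). For Pdgfa in dpi 25, mural or fibroblast-like and oligodendrocyte-like cells overlapped, with a lead of 1.21-fold (0.783 to 1.85). In dpi 35 oligodendrocyte-like cells led mural or fibroblast-like cells by 1.53-fold (1.21 to 1.95), and mural or fibroblast-like (114 to 178) and ependymal-like cells (85.2 to 132) overlapped.

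Within several classes, receptor and ligand were found in the same cell at about the number that their shares give. In OPC-like cells of PDGFRa-GFP, 33 had UMIs of both Pdgfra and Pdgfa where the product of the shares gives 27. More stood apart in cycling cells of that library, at 6 against 2.64, and over all its cells, at 44 against 26.7. Unnamed cells of dpi 35 were at 33 against 24.9, and cluster 4 of hGFAP-GFP at 7 against 8.45. At dpi 25, 101 cycling cells had both against 95. At dpi 35, 141 OPC-like cells had both against 136, 119 cycling cells against 108, and 21 oligodendrocyte-like cells against 22.1. Mural or fibroblast-like cells often held Pdgfrb with Pdgfa, at about the product of the shares: 13 cells against 14.8 at dpi 25 and 17 against 16.8 at dpi 35. Over all cells of dpi 35, Pdgfrb and Pdgfb were together in 23 cells against 9.59, while within endothelial-like cells they were together in 13 against 12 and within mural or fibroblast-like cells in 4 against 3.55. At 1000 UMIs a cell, the ratio for cycling cells of dpi 35 was 0.470 instead of 1.11. Only 22 of those 744 cells then held Pdgfa and 144 Pdgfra, so this ratio rests on few cells.

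Whole libraries were then set side by side, which asks how much of each transcript a sample held. A gene was counted as higher or lower where its CPM differed at least 2-fold, the interval of the ratio left out 1 and the libraries together held at least 20 UMIs. In a summed library, fewer cells of a type and less RNA per cell cannot be told apart. PDGFRa-GFP over hGFAP-GFP, Pdgfra was at 141 and 88.4 CPM, a ratio of 1.59 (1.41 to 1.79), and Pdgfa at 20.1 and 13.3, a ratio of 1.5 (1.10 to 2.08). None of the 3 members tested passed 2-fold there, where 16.4% of genes did.

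The dpi 25 tumour over the PDGFRa-GFP library gave 3 members higher of 5 tested, against 15.7% of all genes (31.9% in either direction). Pdgfb was 10.4-fold higher (4.58 to 29), Pdgfrb 7.48-fold (3.45 to 19.2) and Pdgfa 2.52-fold (2.11 to 3.01). Pdgfra was 1.91-fold higher (1.79 to 2.05), at 269 CPM, and Pdgfc was 0.762-fold (0.481 to 1.21). Over hGFAP-GFP, which shares the dpi 25 library with the former comparison, 4 of 5 were higher, against 16.2% of all genes (36.3% in either direction): Pdgfb at least 10.7-fold against a floor of 3 UMIs, as none was counted in hGFAP-GFP (counting interval from 8.49), Pdgfa 3.79-fold (2.88 to 5.08), Pdgfra 3.05-fold (2.73 to 3.4) and Pdgfrb 2.45-fold (1.29 to 5.11). Pdgfc was at 1.39-fold (0.702 to 2.99). The cortical cells were sorted and the tumour cells were not, and cell source, sort and library cannot be told apart. The part of other cell types in these ratios was not tested. Endothelial, myeloid and mural markers summed higher in the tumour and fibroblast markers did not: 12 endothelial markers summed to 197 CPM in dpi 25, with none at 0, against 10.0 in PDGFRa-GFP (11 measured) and 13.6 in hGFAP-GFP. The 18 microglia or macrophage markers summed to 2684 CPM against 272 and 354, with C1qb, C1qc and Tyrobp at 0 in hGFAP-GFP. The 14 mural markers summed to 78.7 CPM against 31 and 52.2, with Vtn and Higd1b at 0 in hGFAP-GFP, and the fibroblast markers to 82.7 CPM (9 measured) against 93.4 and 86.5 (10 measured, with Slc6a13 at 0 in hGFAP-GFP).

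Set against OPC-like cells alone, the direction of Pdgfra turned. The 4387 cells of the cycling and unnamed clusters of dpi 25 had 303 CPM of Pdgfra and the 1085 OPC-like cells of PDGFRa-GFP had 356, a ratio of 0.851 (0.790 to 0.918). Against the ratio of 1.91 between whole libraries, this is the opposite direction. Pdgfa was higher in those tumour cells, at 43.4 against 23.4 CPM (ratio 1.86, 1.41 to 2.47), beside 43.2 in dpi 25 myeloid cells. Pdgfb, at 25 UMIs against none, was at least 2.13-fold higher against a floor of 3 UMIs, with a counting interval of the log2 ratio that began at 0.68, below 2-fold, and was the 1 member of 4 tested to pass, where 11.6% of all genes were higher (28.5% in either direction). Pdgfc was at 0.708-fold (0.366 to 1.45). OPC markers, listed above, summed lower in these dpi 25 clusters than in clusters 0 and 1 of PDGFRa-GFP, and their part in the Pdgfra level was not tested. This pair of cell sets was chosen after the values were seen and is not matched. The unsorted tumour set includes 2193 cycling cells, while the 940 cycling cells of the sorted PDGFRa-GFP library were left out.

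The wider pathway was read from 50 genes: 31 adaptors and kinases, 10 negative regulators, 6 co-receptors and ligand processors and 3 related class III receptors. For PDGFRa-GFP over hGFAP-GFP, 3 of 49 tested genes were higher (4.21% of all genes) and 4 were lower (12.2%). The Ras-MAP kinase inhibitor Spry4 (log2 ratio 1.41) and the receptor Kit (1.09) stood highest, and the receptor Flt3 (−2.27) and the co-receptor Nrp1 (−1.34) lowest. For dpi 25 over PDGFRa-GFP, 11 of 50 were higher and 2 lower, where 15.7% of all genes were higher and 16.2% lower. Csf1r, the receptor that microglia depend on, led at 3.55, followed by Dusp6, a phosphatase of ERK, at 2.19, and phospholipase C gamma gene Plcg1 (−1.78) and ubiquitin ligase gene Cblb (−1.01) were the lower ones. For dpi 25 over hGFAP-GFP, 12 of 50 were higher and 6 lower, where 16.2% of all genes were higher and 20.1% lower. Csf1r (4.50) and the protease gene Plau (3.63, on 1 UMI in hGFAP-GFP) stood highest, and Flt3 (−3.16) and Crkl (−1.18) lowest. The median log2 ratios of the list were 0.03, 0.22 and 0.05, beside medians of 0.04, −0.01 and 0.01 over all genes tested.

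In the cycling and unnamed cells of dpi 25 over OPC-like cells of PDGFRa-GFP, 4 of 48 tested pathway genes were higher and 3 lower. Of all genes, 11.6% were higher and 16.9% lower. The median of the list was −0.15 beside −0.11 over all genes. Of the negative regulators, 3 of 10 were higher and 1 lower in dpi 25 over either whole cortical library, where 15.7% and 16.2% of all genes were higher and 16.2% and 20.1% lower over PDGFRa-GFP and hGFAP-GFP. Over OPC-like cells of PDGFRa-GFP, 2 of 10 were higher and none lower. Dusp6 was at 116 CPM against 44, a log2 ratio of 1.40 (1.12 to 1.69), and Spry2, an inhibitor of receptor tyrosine kinase signalling, at 201 against 95.4, a log2 ratio of 1.08 (0.89 to 1.27). Spry1 was at 0.43 (0.14 to 0.73) and Spry4 at −0.81 (−1.08 to −0.53), so the Sprouty genes differed in direction. Csf1r was at 31 UMIs against none, and 93.4% of its 498 UMIs in dpi 25 were in microglia or macrophage-like cells. Plcg1 (−1.52) and the kinase gene Src (−1.09) stood lowest, and Lrp1 (−1.02), an endocytic receptor, was also lower.

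The C1 cells gave profiles in TPM, a length-scaled share of the transcripts of a cell, and a gene was counted as present at 10 TPM. In PDGFRa-GFP cells at P6, Pdgfra ranged from 0 to 2013 TPM with a median of 12.6, and 27 of 53 cells (50.9%, interval 36.8 to 64.9) reached 10 TPM. At P3 it ranged from 0 to 803 TPM with a median of 0, and 11 of 60 (18.3%, 9.52 to 30.4) reached it. The means were 152 and 37.7 TPM, a log2 ratio (with 1 TPM added) of 1.98. The ranges overlapped. Among the cells at 10 TPM the medians were 116 and 119 TPM. With Pdgfrb (1.44), Pdgfc (2.91) and Pdgfd (3.98), 4 of 5 members tested were at least 2-fold higher at P6, where 33.9% of all genes were (54.4% in either direction) and the median gene stood at 0.32. Pdgfrb, Pdgfc and Pdgfd rested on 2, 3 and 1 cells of P6 at 10 TPM. As differences of mean log2 values these 3 were at 0.19, 0.32 and 0.22, and without the highest cell of each set at 0.74, 1.57 and 0.06, so that none of the 3 passed 2-fold in the first setting and only Pdgfc in the second.

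The makeup of the 2 PDGFRa-GFP sets differed as well. At P6, 40 of 53 cells (75.5%) had at least 3 OPC markers at 10 TPM and not 3 interneuron markers, and at P3 18 of 60 (30.0%). Among these, 26 (65%, 48.3 to 79.4) and 11 (61.1%, 35.7 to 82.7) had Pdgfra, with means of 199 and 126 TPM. The 7 and 30 cells with interneuron markers alone, and the 4 and 11 with both, held no cell at 10 TPM of Pdgfra. P6 cells also had more genes detected, a median of 5591 against 4124.5, and the part of that in the result was not tested. Among all cells with at least 3 OPC markers, those with both marker sets included, 26 of 44 (59.1%) at P6 and 11 of 29 (37.9%) at P3 had Pdgfra. Such marker calls overlap. Of the 27 P6 cells with Pdgfra, 26 had at least 3 neuron markers and 24 at least 3 astrocyte markers.

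**Figure D3:**
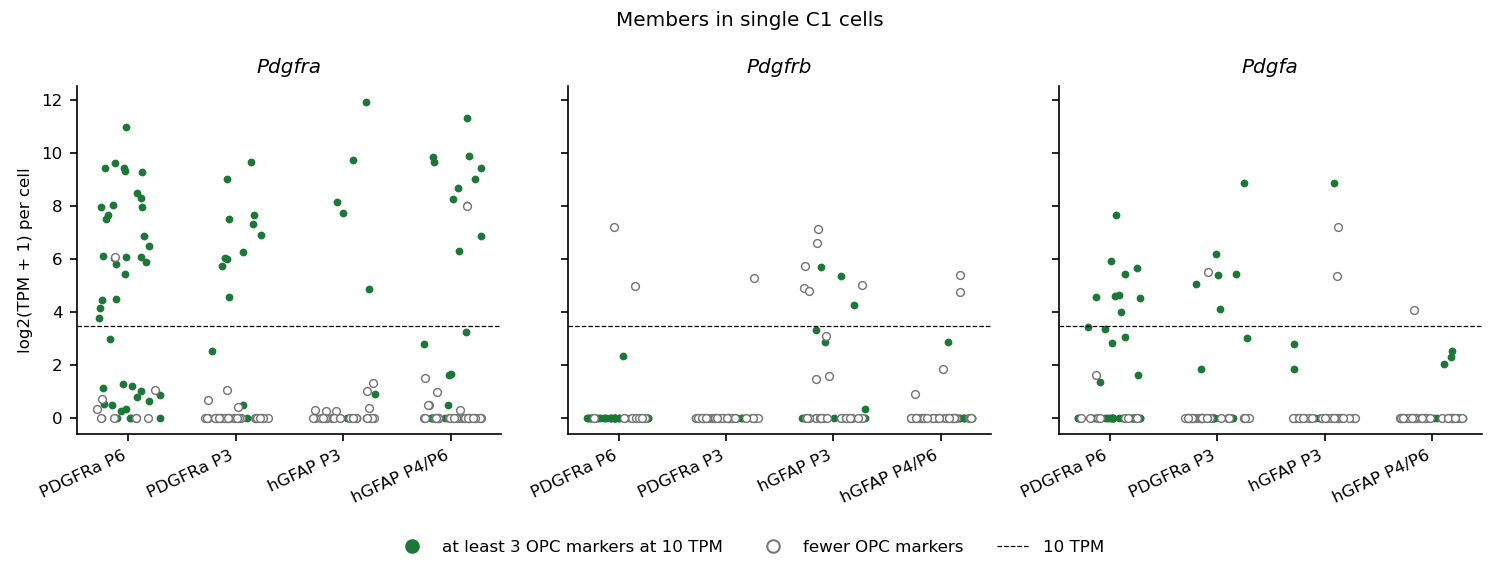
Pdgfra, Pdgfrb and Pdgfa in each C1 cell of the 4 sets, as log2(TPM + 1). Filled green points are cells with at least 3 OPC markers at 10 TPM, and the dashed line is at 10 TPM. Cells above the line for Pdgfra are nearly all green, while those for Pdgfrb are not.

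In hGFAP-GFP C1 cells, Pdgfra ranged from 0 to 3925 TPM at P3, with 5 of 49 cells at 10 TPM (10.2%, 3.4 to 22.2), and from 0 to 2593 TPM at P4 or P6, with 12 of 61 (19.7%, 10.6 to 31.8). The medians were 0 in both sets and the means 108 and 130 TPM, a log2 ratio of 0.26. One P3 cell held 73.9% of that set's Pdgfra, and without the highest cell of each set the ratio was 1.60. All 5 positive P3 cells and 11 of the 12 later ones were among the 23 and 27 cells with at least 3 OPC markers. The marker calls overlapped, as 4 of these P3 and 10 of these later cells also had at least 3 neuron markers. Of the 12 later ones, 4 had at least 3 interneuron markers. Pdgfrb was at 10 TPM in 9 of 49 P3 cells (18.4%, 8.76 to 32) and in 2 of 61 later ones (3.28%, 0.400 to 11.3), with means of 10.5 and 1.25 TPM, a log2 ratio of −2.35. All 9 and both of the 2 were among the 39 and 30 cells with at least 3 astrocyte markers, and among the 41 and 29 with at least 3 radial glia markers. None of them had 3 mural markers, but the 1 P3 cell that did had Pdgfrb at 9.07 TPM, just below the cut. In the PDGFRa-GFP sets the 2 and 1 Pdgfrb cells were the 2 and 1 cells with at least 3 mural markers. The same cells were the 2 and 1 with at least 3 fibroblast markers, so mural cells and fibroblasts are not separated among them. These Pdgfrb cells had at least 3 astrocyte markers as well, and 1 of the 2 at P6 also reached 10 TPM of Pdgfra.

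The ligands were sparse in the C1 cells. Pdgfa was at 10 TPM in 9 of 53 and 7 of 60 PDGFRa-GFP cells (means 9.39 and 12 TPM) and in 3 of 49 and 1 of 61 hGFAP-GFP cells (means 13.6 and 0.446 TPM). The log2 ratio of the later over the P3 set was −0.33 in PDGFRa-GFP, and turned to 0.46 as a difference of mean log2 values and to 0.32 without the highest cell of each set. In hGFAP-GFP it was −3.33, on a P3 set in which 1 cell held 70.6% of the sum, and −0.35 as a difference of mean log2 values, which is within 2-fold. With Pdgfrb, this made 2 of 4 members tested at least 2-fold lower in hGFAP-GFP, where 26.1% of all genes were (51.8% in either direction). In PDGFRa-GFP cells, Pdgfra and Pdgfa were at 10 TPM together in 6 cells at P6 (product of shares 4.58) and in 3 at P3 (1.28). Pdgfb was listed at 0 TPM in all 223 C1 cells, and Pdgfd passed 10 TPM in 1 P6 cell of PDGFRa-GFP, at 780 TPM. Of the 50 pathway genes, 16 of 48 tested were at least 2-fold higher and 4 lower at P6 in PDGFRa-GFP (33.9% of all genes higher and 20.5% lower), with a median of 0.64 beside 0.32 over all genes. In hGFAP-GFP 6 of 47 were higher and 10 lower (25.7% of all genes higher and 26.1% lower), with a median of −0.12 beside 0.02.

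Open chromatin around Pdgfra was dense at the start of the gene. The gene spans chr5:75151322-75198206, 46885 bases, and the pooled list held 29 of its 76321 intervals within 100000 bases, against a median of 10 over 21887 genes (percentile 90.4). Of these, 9 touched the gene, 14 lay before and 6 after it. Within 5000 bases of the start site at 75152251 there were 10, where the median of 17492 genes was 1 and the highest 14 (percentile 99.8). The window of 5000 bases was chosen after the intervals were seen. The promoter itself was covered by chr5:75151975-75152377, with a fold over background of 3.54 and a −log10 q of 1.71 in the authors' list, at the median fold of all intervals. The strongest interval, chr5:75155683-75156499, was within the gene with its summit 4092 bases downstream of the start site, at a fold of 10.1 and a −log10 q of 15.5 (percentile 94.7 of all intervals). It was followed by chr5:75156590-75157409 at 6.07. All 9 intervals that touched the gene were at or above the median fold. Not every counted interval was strong. Several of the 29 had a −log10 q of only 0.380 or 0.986, beside a median of 1.71 over all intervals. Among them was chr5:75148682-75148952, 1 of the 10 near the start site, at 0.380.

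Upstream, the strongest interval was chr5:75075353-75076255, also at a fold of 6.07, which overlaps Gsx2, a homeobox gene 73429 bases from the Pdgfra span. It belongs to a run of intervals with summits from −88900 to −66939 bases of the Pdgfra start site, and Gsx2 lies within that run. The count within 100000 bases of Pdgfra thus includes intervals around a neighbouring gene. Kit, the related receptor gene, lies 376781 bases away. The other members had 22 intervals within 100000 bases for Pdgfrb, 11 for Pdgfa, 16 for Pdgfb, 6 for Pdgfc and 4 for Pdgfd. Counted per kb of the gene's own span, Pdgfra did not rank first among the members. It had 0.192 intervals per kb (percentile 82.01), below Pdgfrb at 0.3004 (88.47) and Pdgfa at 0.2825 (87.73). Pdgfb, Pdgfc and Pdgfd were lower than Pdgfra. Both start sites of Pdgfa were covered by chr5:138993883-138995122 at a fold of 4.55, with 7 intervals within 5000 bases (percentile 98.6). The promoters of Pdgfc and Pdgfd held none, and 58.3% of genes had an interval on their promoter. The list pools an embryonic and a postnatal library and all PDGFRa-GFP cells, so no interval can be assigned to an age or a cell type.

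**Figure D4:**
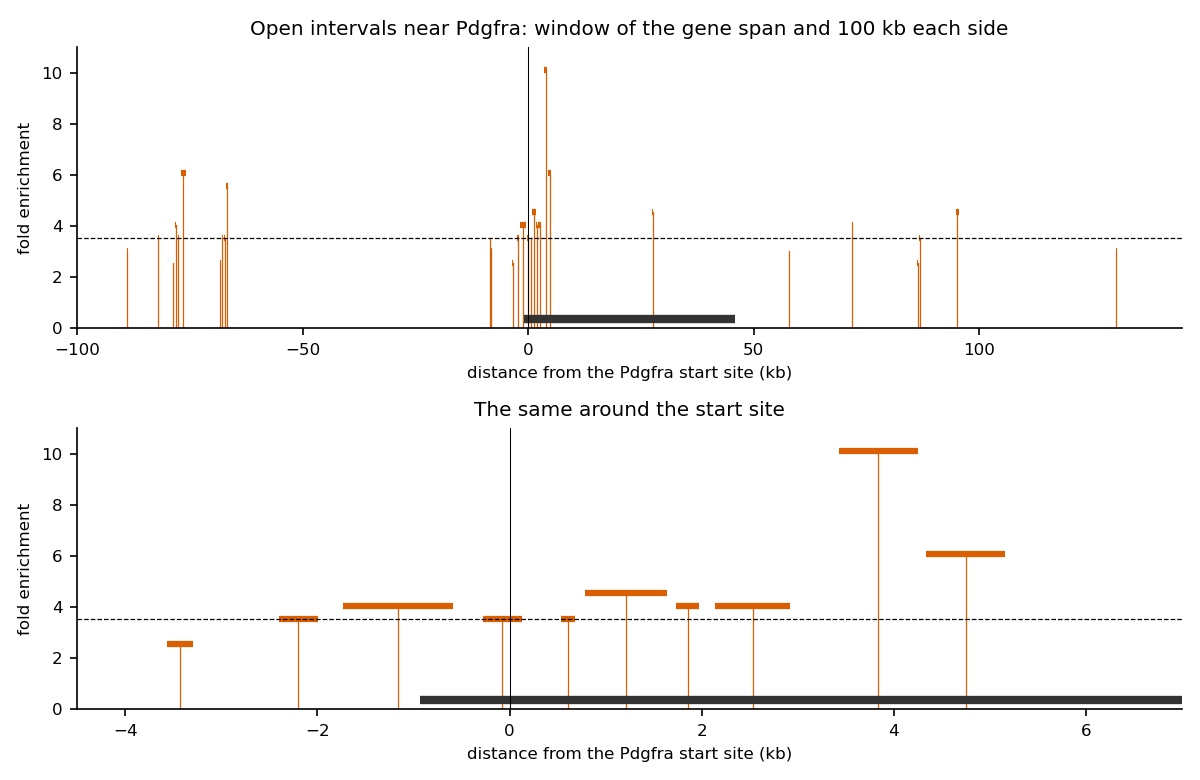
Open intervals of the pooled ATAC-seq list by distance from the Pdgfra start site (x, kb) and the authors' fold over background (y), over the whole window above and close to the start site below. Each horizontal orange bar spans 1 interval, the dark bar is the gene and the dashed line the median fold of all intervals, 3.54; the tallest interval, at 10.1, lies inside the gene.

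The genes most like each member were found by Pearson correlation of log2(CPM + 10), centred within each library, over 24 class profiles of the 4 droplet libraries, among 12109 genes. The profiles share libraries and depth, and classes were named from some of these genes. For Pdgfra they were Gsx1 (0.94), which is in the primitive OPC marker list, Cntn4 (0.94), Slc1a6 (0.89), Asic4 (0.88) and Mmp15 (0.87). For Pdgfrb they were Kcnj8 (0.98) and Col3a1 (0.97), both mural or fibroblast markers of the naming list, with Ccl11, Dmp1 and Cd248 (0.96 each). For Pdgfb they were Prkch and Ly6a (0.96), and AA467197, Gstt2 and Pmaip1 (0.95). For Pdgfa the highest were lower, Kazn (0.84), Smim1 (0.83), and Cobll1, Cox6b2 and Ppfibp2 (0.81), and for Pdgfc Arid5b (0.81), Cercam and Itpk1 (0.80), Pdlim2 (0.79) and Cyp7b1 (0.78). Among the members, the profile of Pdgfra correlated with that of Pdgfa at 0.14 and of Pdgfb at −0.36.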

How the data were processed

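Drop-seq, 10x, C1 and ATAC-seq tables were used as deposited; the 6 members and all gene lists were chosen with earlier results of these data known. The submitters' processing notes name, without their roles, MACS2 2.12, HOMER, STAR, Bowtie2, RSEM, CASAVA and Cell Ranger, with rn5 beside mm10 as genome builds. The Drop-seq signal was scaled by the authors to 10000 per cell, as the deposited values show, and whole UMIs were recovered for 100% of cells. The 10x table holds counts as deposited by the authors. The C1 tables hold TPM as deposited, normalized separately, with unknown depth. The deposited interval list gives the authors' fold over background and −log10 p and q.

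Cells with at least 200 genes were clustered in scanpy 1.11.5 (Python 3.11.15) with leidenalg 0.10.2: 2000 variable genes without the members, 30 principal components, 15 neighbours, resolution 1, seed 20. Names needed 3 markers among the top 50 genes, and clusters led by at least 3 replication or histone genes among the top 10 were called cycling. That scoring rule was settled after the clusters were seen. Cells called doublets by Scrublet were kept. UMIs were summed per class, with exact 95% Poisson, Clopper-Pearson or conditional ratio intervals (scipy 1.17.1), which cover counting error only, and a floor of 3 UMIs over the group. Genes needed 20 summed UMIs, or a mean of 1 TPM in either C1 set with 1 TPM added before log2. Members are named throughout. Of the pathway genes, the 2 past 2-fold with the largest ratios each way were named per library contrast, and others were chosen after their values were seen. Some genes within the counts are not reported here by name. The 5 genes most like a member with at least 100 UMIs were named by correlation. The code was tested on simulated data. Alternatives were tried for clustering, scaling, filters, thinning, pseudocount, windows and the correlation.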

Additional observations from a re-analysis of the deposited data

Results flagged for a closer look

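Both C1 sorts compare a later set with P3, and 2 members went in opposite directions in the 2 sorts. Pdgfrb had a log2 ratio of 1.44 in PDGFRa-GFP (P6 over P3), resting on 2 and 1 cells at 10 TPM, and of −2.35 in hGFAP-GFP (P4 or P6 over P3), resting on 2 and 9 cells. Pdgfc had a log2 ratio of 2.91 in PDGFRa-GFP, where 1 cell held 77.2% of the P6 sum, and of −0.27 in hGFAP-GFP, on 3 and 2 cells. The latter was 0.09 as a difference of mean log2 values and 0.54 without the highest cell of each set, so the opposite directions of Pdgfc did not hold there. The difference between the sorts was not tested, and the later ages are not the same in them.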

How the results depend on the processing

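No paired analysis was possible because each group counted as 1 sample and no result came from a test. Of 166 alternative values of the main results, 122 stayed, 43 moved and 1 reversed, and of 305 for other results 275 stayed and 30 moved. Staying meant within the counting interval for levels, shares, library ratios and same-cell counts. For C1 ratios and other counts it meant within a fixed fold margin. The alternative of cells with at least 500 genes could move nothing, as the 4 libraries' lowest counts were 500, 904, 801 and 647. Nor could doublet removal in dpi 25, where 0 were called. These values are among those that stayed. A change of sign counted as reversed only where the value as reported was at least 2-fold (C1) or its interval left out 0, so the C1 changes of sign of Pdgfa below are among the moved values. The cause of these moves was not tested, except where the setting changes the scale or the cells by its construction. In PDGFRa-GFP OPC-like cells Pdgfra was 467 CPM at Leiden resolution 0.5, 460 at resolution 2 and 409.95 without the 50 most abundant genes. In cluster 4 of hGFAP-GFP it was 397 at resolution 0.5 and 655 without those genes. At resolution 2 that class was not formed, and the primitive OPC-like class was not formed at resolution 0.5 or with the members left in, so these gave no value. With the members left in, 2 members were led by 1 class in hGFAP-GFP. Without the 50 genes, Pdgfra was 345 in cycling cells of dpi 25 and 302 in OPC-like cells of dpi 35, where Pdgfrb was 769.75 in mural or fibroblast-like, Pdgfa 279 in oligodendrocyte-like and Pdgfb 331 in endothelial-like cells. Unthinned shares with Pdgfra were 48.2% (OPC-like, PDGFRa-GFP), 48.97% (cycling, dpi 25) and 70.04% (OPC-like, dpi 35), and 44.7%, 41.5% and 35.2% at 2000 UMIs. Unthinned, Pdgfb was in 79.9% of endothelial-like and Pdgfa in 69.03% of oligodendrocyte-like cells of dpi 35. Members past 2-fold numbered 1 for PDGFRa-GFP over hGFAP-GFP with at least 1 UMI, 1 for dpi 25 over PDGFRa-GFP with at least 100 UMIs, and 2 for dpi 25 over hGFAP-GFP both with at least 100 UMIs and with thinned cells. With thinned cells, Pdgfa had a log2 ratio of 1.604 for dpi 25 over PDGFRa-GFP and Pdgfb a bound of 0.77 over hGFAP-GFP. In the cell sets chosen after seeing the data, Pdgfra reversed to −0.23 from 0.94, Pdgfa was 0.89 and Pdgfb had a bound of 1.09. In C1 PDGFRa-GFP, Pdgfrb was 2.26 with 0.1 TPM added, 0.19 as a difference of mean log2 values and 0.74 without the highest cells, and Pdgfa 0.46 and 0.32 in the last 2 settings, from −0.33. In C1 hGFAP-GFP, Pdgfrb was −2.97 and −1.01 in the first 2 settings, Pdgfa −4.65, −0.35 and −2.09 in all 3, and Pdgfra 0.99 and 1.597 in the last 2. The same-cell ratio in cycling cells of dpi 35 was 0.470 after thinning, where only 22 of 744 cells held Pdgfa. Intervals near Pdgfra numbered 18 within 50000 bases, 44 within 200000 and 1 at a −log10 q of at least 10. Pdgfc and Pdgfd had at most 88 UMIs in a library, and Pdgfb and Pdgfrb at most 11 in a cortical one, which limits the precision of their levels.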
